A study of Naumovozyma castellii with 10 samples.

Results

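Solo CUTs are cryptic unstable transcripts of the budding yeast Naumovozyma castellii that overlap no mRNA, XUT, CUT or SUT annotated on the opposite strand. XUTs and SUTs are the other classes of long non-coding RNA in the annotation, those sensitive to the exonuclease Xrn1 and those that are stable but unannotated. Of 8407 annotated features and 1280 CUTs, 290 CUTs had no such antisense feature, and 246 remained after the 44 within 20 kb of a chromosome end were left out. At that limit, CUT0800 was kept at 21097 bases from the end and CUT0797 was left out at 19179 bases. A further 4 CUTs that the selection excludes by name each had an antisense feature, so that their exclusion removed no member. The annotated mRNA intervals are coding lengths, 97.6% of them a multiple of 3, so an antisense overlap with an untranslated region was not seen by the selection.

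Small RNAs under 80 nt were sequenced in 10 libraries, 2 per group, so that the effects of losing nonsense-mediated decay (NMD) on small RNAs can be set beside those of losing Dicer. All strains were MATalpha ura3-1 ho, and cultures in YPD were kept at 25 °C and taken at OD600 0.5. The groups were dcr1 upf1, which lacks both Dicer and the NMD helicase Upf1; dcr1 CHX, a Dicer mutant given the translation inhibitor cycloheximide (CHX) at 100 µg/mL for 15 min; WT CHX, the wild type given the same treatment; upf1, carrying the upf1::kanMX6 deletion; and WT, the untreated wild type. Each genotype was 1 strain, and an untreated dcr1 group was not analysed here. The replicates are described as biological, and nothing says whether they came from separate clones.

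CUTs were defined in Saccharomyces cerevisiae as short RNA polymerase II transcripts, often made divergently from promoters of coding genes, that are ended early by the Nrd1, Nab3 and Sen1 proteins and destroyed by the nuclear exosome with the helicase Mtr4. N. castellii, unlike S. cerevisiae, has kept RNA interference, in which Dicer cuts double-stranded RNA into short interfering RNAs that are loaded onto Argonaute. NMD is a cytoplasmic decay pathway that depends on translation and on Upf1, so that deletion of UPF1 and a block of translation are both used to impair it.

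The density used throughout is the authors' number of reads per nucleotide of a feature, scaled to Schizosaccharomyces pombe small RNAs added to each sample. Over all features the libraries held 129559 to 148330 reads without Dicer and 3169072 to 6904640 reads with it. The deleted gene itself gave 0 reads in all dcr1 upf1 and upf1 libraries, against 4 and 8 in dcr1 CHX, 21 and 45 in WT CHX and 13 and 3 in WT, where UPF1 is listed under its other name NAM7. In 118 of 878 pairs of a feature lying wholly inside another of the opposite strand, the inner feature held more reads, which only counting by strand can give. No sequences are printed, since no genome of N. castellii was used here.

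The 246 solo CUTs were short and lay mostly in the upstream regions of coding genes. Their length ran from 201 to 1436 bases with a median of 337.5, against a median of 440 in the 942 CUTs that have an antisense feature and 495 in the 246 XUTs that have none. The longest were CUT0700 at 1436, CUT1253 at 1266 and CUT0083 at 1229 bases, and the shortest were CUT0062 at 201 and CUT0868 and CUT0902 at 202 bases each. On the opposite strand, the nearest feature upstream of the 5′ end lay a median of 312 bases away, under 1000 bases away for 224 members, and was an mRNA for 219 of the 246. On the same strand the nearest mRNA lay downstream for 180 members, at a median gap of 587 bases, and upstream for 66, at 1688 bases. No member overlapped an mRNA of its own strand. However, 87 overlapped a same-strand XUT, 54 of them over their whole length, so that reads in the shared stretch are also counted in the XUT. On the opposite strand 2 members had a snoRNA and 2 a tRNA, classes that the selection did not use.

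Few small RNAs came from most solo CUTs. In total the members held 160 and 140 reads in dcr1 upf1, 269 and 286 in dcr1 CHX, 4167 and 5870 in WT CHX, 13481 and 15471 in upf1, and 4087 and 3467 in WT, which is between 0.0986% and 0.224% of the reads of a library. No read in any library fell in 19 members. Over the libraries of a group, 10 reads or more were reached by 4 members in dcr1 upf1, 12 in dcr1 CHX, 105 in WT CHX, 105 in upf1 and 65 in WT. The median density of a solo CUT was 0.00608 in WT CHX, 0.00615 in upf1 and 0.00171 in WT, while CUTs with an antisense feature had medians of 0.0410, 0.0489 and 0.0127 in the same groups. Solo XUTs were nearer to the solo CUTs, with medians of 0.00919, 0.0109 and 0.00233. These differences between classes were not tested. Counting error alone is covered by read numbers, since no molecular identifiers are described.

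The summed densities of all solo CUTs did not overlap between any of the groups. It was 0.104 ± 0.0138 in dcr1 upf1, 0.329 ± 0.00874 in dcr1 CHX, 8.83 ± 0.604 in WT CHX, 21.7 ± 0.617 in upf1 and 4.31 ± 0.0517 in WT (SD, n = 2 each). The upf1 sum was 5.03 times the WT sum and the WT CHX sum 2.05 times it, whereas the sums over all features were 2.30 and 1.55 times. For CUTs with an antisense feature the factors were 6.01 and 2.74. An exact two-sided permutation test over 2 against 2 libraries gave p = 0.333 for each of the 7 pairs tested, the smallest value that it allows. The 10 densest members over the Dicer-proficient libraries held 10.5% of the sum in dcr1 upf1, 13.1% in dcr1 CHX, 44.9% in WT CHX, 53.6% in upf1 and 53.7% in WT. Without these 10 the ratios to WT were 5.04 for upf1 and 2.44 for WT CHX.

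**Figure D1:**
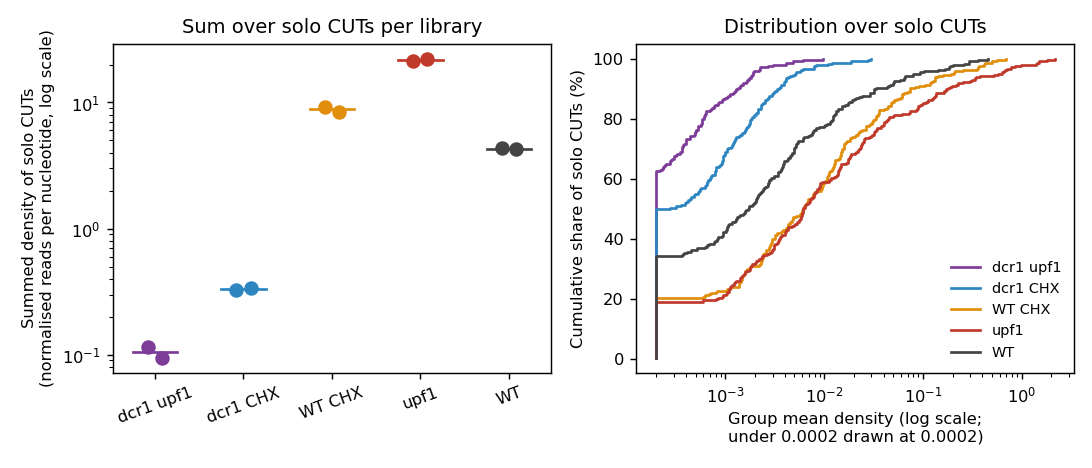
The left panel shows the summed density of the 246 solo CUTs in each library (log scale, normalised reads per nucleotide), with 2 points and their mean as a line per group; the right panel shows the cumulative share of solo CUTs (%) against group mean density. The sums rank dcr1 upf1, dcr1 CHX, WT, WT CHX and upf1 from low to high with no overlap, while the curves of WT CHX and upf1 cross and separate only among the densest members.

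The 8 densest solo CUTs over the Dicer-proficient libraries were CUT0668, CUT1202, CUT0334, CUT0568, CUT1094, CUT0488, CUT0544 and CUT0405. Coordinates below are those of the deposited table, whose N. castellii build is not given in the sources used here, and gene roles are those known in S. cerevisiae. CUT0668, the densest, lies on the minus strand of chromosome 3 from 1107663 to 1107930, its 3′ end 170 bases before NOB1, the nuclease that trims the end of 18S ribosomal RNA. Its density was 0.384 and 0.313 in WT CHX, 1.99 and 2.31 in upf1, and 0.168 and 0.166 in WT. Both upf1 libraries stood above both WT CHX libraries, and these above both WT libraries. The log2 change was 3.67 for upf1 against WT (SE 0.15, adjusted p = 1.91e-06) and 1.05 for WT CHX against WT (SE 0.15, adjusted p = 0.000768). NOB1 itself had far lower densities, 0.0464 and 0.0474 in WT CHX, 0.00918 and 0.00728 in upf1, and 0.00104 and 0.00163 in WT.

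Most of the other densest members had the same order of groups. CUT1202, at 38862 to 39111 on the minus strand of chromosome 9 and 191 bases from the divergent SCP1, a calponin-like actin-binding protein, had 0.532 and 0.461 in WT CHX, 1.88 and 1.76 in upf1, and 0.202 and 0.169 in WT. CUT0334, at 86383 to 86831 on the plus strand of chromosome 10 and 276 bases before SPB4, a helicase of large ribosomal subunit assembly, had 0.372 and 0.343 in WT CHX, 1.44 and 1.53 in upf1, and 0.129 and 0.153 in WT. Neither had overlapping values in any pair of these groups. CUT0568, at 69165 to 69742 on the minus strand of chromosome 3, lies between DSK2, a carrier of ubiquitinated proteins, and BUL1, an adaptor of the ubiquitin ligase Rsp5. It had 0.182 and 0.201 in WT CHX, 1.51 and 1.35 in upf1, and 0.103 and 0.102 in WT. BUL1, 408 bases away and transcribed divergently, had 0.211 and 0.149 in WT CHX, 1.71 and 1.68 in upf1, and 0.0744 and 0.0619 in WT, with a log2 change of 4.62 in upf1 against WT (SE 0.19).

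CUT0488, CUT1094 and CUT0544 overlap a same-strand XUT. CUT0488, at 1095663 to 1096227 on the plus strand of chromosome 2, overlaps XUT0361 and ends 30 bases before the convergent XUT0362. It had 0.127 and 0.114 in WT CHX, 1.35 and 1.43 in upf1, and 0.0755 and 0.0556 in WT, and its log2 change in upf1 against WT was 4.39 (SE 0.18, adjusted p = 1.96e-06), the largest of the 8. CUT1094, at 661985 to 662843 on the minus strand of chromosome 7, ends 84 bases before UBA1, the ubiquitin-activating enzyme, and partly overlaps an opposite-strand snoRNA. It had 0.428 and 0.403 in WT CHX, 0.877 and 1.07 in upf1, and 0.290 and 0.293 in WT. Its same-strand XUT0823, at 662010 to 662753 and thus inside CUT1094, had only 0.0132 and 0.00914 in upf1. Most reads of CUT1094 in upf1 therefore lay outside that XUT, towards the ends of the CUT. That snoRNA had 139 and 221 reads in dcr1 upf1 against 890 and 1037 in upf1, where CUT1094 had 3 and 5 against 996 and 1352. Both were lower in dcr1 upf1, and whether the pair shares reads was not tested. CUT0405, at 387522 to 387890 on the minus strand of chromosome 2 and 39 bases from the divergent TOS1, which encodes a cell wall protein, had 0.415 and 0.411 in WT CHX, 0.767 and 0.941 in upf1, and 0.247 and 0.268 in WT.

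CUT0544 was the exception among the 8. It lies at 1658556 to 1658923 on the minus strand of chromosome 2 and overlaps XUT0407. Its density was 0.560 and 0.562 in WT CHX, 0.582 and 0.477 in upf1, and 0.530 and 0.371 in WT. The upf1 and WT values overlapped, and the log2 changes were 0.25 for upf1 (SE 0.19, adjusted p = 0.309) and 0.34 for WT CHX (SE 0.19, adjusted p = 0.144) against WT. The convergent XUT0406, 309 bases away, rose in upf1, with 1.56 and 1.48 there against 0.104 and 0.111 in WT, a log2 change of 3.81 (SE 0.12).

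**Figure D2:**
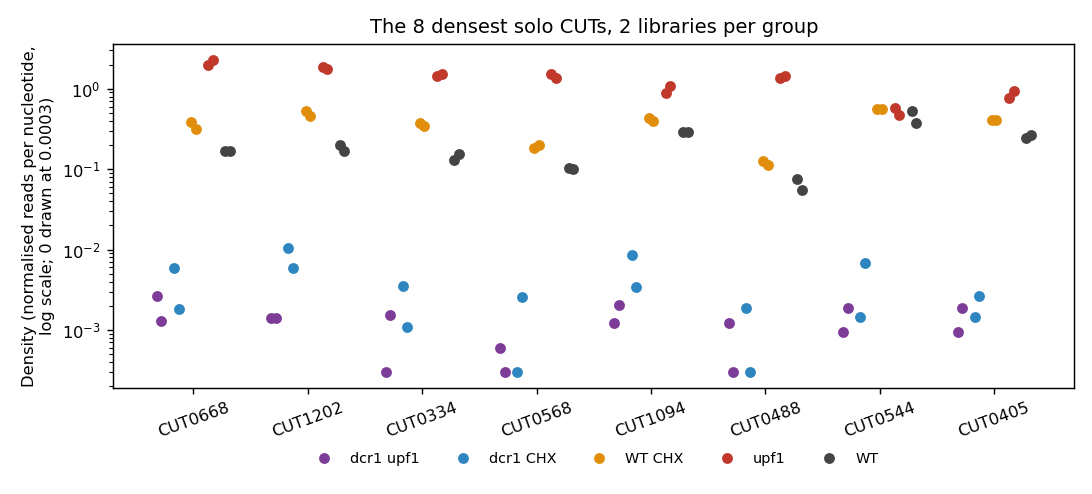
Density (log scale, normalised reads per nucleotide) of the 8 densest solo CUTs, with 2 libraries per group as points and 0 drawn at 0.0003. In 7 of the 8 the upf1 points stand above the WT CHX and WT points; CUT0544 had 0.582 and 0.477 in upf1 and 0.530 and 0.371 in WT.

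Loss of Upf1 raised the small RNAs of 89 of the 175 solo CUTs dense enough to test and lowered those of 1, at an adjusted p of 0.05 in limma on log2(density + 0.00145). Over all 7879 features tested, 57.7% were called higher and 0.622% lower. The median log2 change was 1.57 over the tested solo CUTs and 1.20 over all tested features. With members at 0 reads in WT set to the level of 3 reads over the group, and 19 members at or under that level in both groups left out, the median was 1.82. A pseudocount 10 times larger gave a median of 0.55 and one 10 times smaller 2.07. Under a stricter filter on low values, 77 of 108 solo CUTs were called higher, against 69.2% of all features higher and 0.784% lower. CUTs with an antisense feature had 609 of 907 called higher and a median of 1.67, and solo XUTs had 121 of 192 and a median of 1.67. The share of solo CUTs called was thus near that of the whole annotation. Scaling on the median mRNA shifts each log2 change of this comparison by -1.23, after which 44 solo CUTs were higher, 10 were lower and the median was 0.35; scaling on tRNA, rRNA and snoRNA shifts it by -0.28.

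Of the 5 largest rises in upf1, those of CUT0642, CUT0838 and CUT1222 came from members with 4 reads or fewer in each WT library. CUT0642, at 910327 to 910910 on the plus strand of chromosome 3, 117 bases before BSC6 and 464 bases from the divergent RTC1, a subunit of a regulator of the TORC1 kinase, had 527 and 632 reads in upf1 and 4 and 4 in WT. Its density was 0.683 and 0.736 in upf1 and 0.00332 and 0.00391 in WT, a log2 change of 7.13 (SE 0.19, adjusted p = 6.51e-07). BSC6, with 0.806 and 0.817 in upf1 and 0.0468 and 0.0399 in WT, and RTC1, with 0.271 and 0.272 in upf1 and 0.0336 and 0.0283 in WT, also rose in upf1, by 4.19 and 3.08 on the log2 scale.

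CUT0838, at 324396 to 324850 on the plus strand of chromosome 5 and overlapping XUT0634, rose by a log2 change of 5.23 (SE 0.54), with 52 and 60 reads in upf1 and 0 and 2 in WT. CUT1181, at 572207 to 572984 on the plus strand of chromosome 8, overlaps XUT0900 and lies between FBA1, the glycolytic aldolase, and MPE1, a factor of mRNA 3′ end formation. It had 0.664 and 0.607 in upf1 and 0.0162 and 0.0191 in WT, a log2 change of 5.06 (SE 0.18). The change of FBA1 was smaller, at 1.19 (SE 0.17), and MPE1 had 0.00279 and 0.00451 in upf1 and 0.00286 and 0.00253 in WT. CUT1222, at 188371 to 188677 on the minus strand of chromosome 9, lies within the same-strand XUT0933, whose log2 change was 1.57 (SE 0.26). The CUT is 91 bases before the convergent TKL2, a transketolase, and 368 bases from the divergent LYS2 of lysine synthesis. It had 33 and 43 reads in upf1 and 1 and 1 in WT, a log2 change of 4.82 (SE 0.35), and TKL2 rose as well, with 0.982 and 1.09 in upf1 and 0.0280 and 0.0269 in WT. CUT0636, at 830253 to 831003 on the minus strand of chromosome 3, had 0.353 and 0.339 in upf1 and 0.00968 and 0.0167 in WT, a log2 change of 4.61 (SE 0.27).

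A single solo CUT fell in upf1. CUT0595, at 383407 to 383765 on the plus strand of chromosome 3 between MOT1, an ATPase that removes TATA-binding protein from DNA, and the ribosomal protein gene RPS9A, had 1 and 2 reads in upf1 and 7 and 13 in WT. Its log2 change was -1.85 (SE 0.49, adjusted p = 0.0146). This call was not made in limma-voom on whole reads, nor without upf1 replicate 1 or WT replicate 2, with log2 changes of -1.88, -1.57 and -1.34.

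Cycloheximide raised 90 of the 175 tested solo CUTs and lowered 1 in the wild type, against 77.1% of all tested features higher and 0.165% lower. The median log2 change was 1.18 over solo CUTs and 1.51 over all features. It was 1.43 over solo CUTs with members at 0 reads set to the level of 3 reads, and 31 at or under it in both groups left out. With a pseudocount 10 times larger the median was 0.49. With the stricter filter, 76 of 108 solo CUTs were called higher, against 84.5% of all features. CUTs with an antisense feature had 666 of 907 higher. The direction rests on the spike-in: scaling on the median mRNA shifts each log2 change by -1.76, and then 4 solo CUTs were higher and 34 lower, with a median of -0.57. Scaling on tRNA, rRNA and snoRNA, a shift of -0.37, left a median of 0.90.

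Among the largest rises with cycloheximide were sparse members with 0 or 1 reads in WT. CUT0076, at 637996 to 638316 on the plus strand of chromosome 1 between PTR2, a peptide transporter, and SRP40, a nucleolar protein, had 6 and 7 reads in WT CHX and 0 and 0 in WT, at least 6.66-fold higher against the level of 3 reads over the group. CUT0254, at 2208872 to 2209311 on the minus strand of chromosome 1 and 253 bases from ROX1, the repressor of hypoxic genes, had 10 and 6 reads in WT CHX and 0 and 0 in WT, at least 8.77-fold higher. CUT0299 had 6 and 9 reads in WT CHX and 0 and 0 in WT, at least 7.48-fold higher, and CUT0164 had 2 and 7 reads in WT CHX and 0 and 0 in WT, at least 4.14-fold higher. Without WT CHX replicate 2 the fitted log2 change of CUT0164 was 2.46 (adjusted p = 0.0626 in limma), and the call was lost. CUT0725, 158 bases beyond the polo kinase gene CDC5 and overlapping XUT0560, had 14 and 10 reads in WT CHX and 0 and 1 in WT.

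The member that fell with cycloheximide was CUT0336, at 96848 to 97122 on the plus strand of chromosome 10 and overlapping XUT0984. It had 2 and 2 reads in WT CHX and 9 and 7 in WT, a log2 change of -1.18 (SE 0.31, adjusted p = 0.0112). Without WT CHX replicate 2 the change was -0.93, and neither that fit nor limma-voom on whole reads called it. In upf1 the same CUT rose, with 0.0743 and 0.114 there against 0.0159 and 0.0145 in WT, a log2 change of 2.49 (SE 0.31).

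Set directly against each other, WT CHX and upf1 differed for 54 of 175 solo CUTs, and mostly in the direction of lower values with cycloheximide. In WT CHX 8 were higher and 46 lower than in upf1, where 24.0% of all tested features were higher and 21.8% lower. The median log2 difference was -0.37 over solo CUTs and 0.24 over all features. With members at 0 reads set to the level of 3 reads, and 14 at or under it in both groups left out, the median was -0.46. Under the stricter filter 8 were higher and 41 lower of 108, against 25.2% and 26.9% of all features. CUTs with an antisense feature had 134 higher and 290 lower of 907, and solo XUTs 14 and 58 of 192. The count of 8 depends on single libraries. It was 3 without WT CHX replicate 1, 5 without upf1 replicate 1, 13 without upf1 replicate 2 and 16 without either WT library, while the count of 46 stayed within 1.5 times. Scaling on the median mRNA, a shift of -0.53, gave 3 higher and a median of -0.90.

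The densest members were ranked on a mean that holds the WT CHX and upf1 values themselves, so their counts are given as a description. Of the 8 densest, 7 were lower in WT CHX than in upf1, with a median log2 difference of -1.96; of the 20 densest, 15 were lower and 2 higher; and of the 50 densest, 29 were lower and 3 higher. CUT0642 had 0.0308 and 0.0278 in WT CHX against 0.683 and 0.736 in upf1, a log2 difference of -4.53 (SE 0.19). CUT1181 had 0.0437 and 0.0510 in WT CHX against 0.664 and 0.607 in upf1, a difference of -3.71 (SE 0.18). CUT0336 differed by -3.67 (SE 0.31), CUT0488 by -3.51 (SE 0.18) and CUT0025, which overlaps XUT0023 on chromosome 1, by -3.44 (SE 0.53), the last with 0 and 1 reads in WT CHX against 8 and 18 in upf1.

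The 8 members higher in WT CHX than in upf1 were CUT0915, CUT0315, CUT0055, CUT0946, CUT0343, CUT0076, CUT0869 and CUT0468. CUT0915, at 42985 to 43335 on the minus strand of chromosome 6 between RPS28A, a ribosomal protein gene, and SWT1, an endonuclease of nuclear mRNA surveillance, was the densest of them. It had 0.712 and 0.662 in WT CHX, 0.366 and 0.306 in upf1, and 0.316 and 0.274 in WT, and the log2 difference between WT CHX and upf1 was 1.03 (SE 0.15, adjusted p = 0.00167). CUT0315, overlapping XUT0250 and 84 bases before the convergent ERV2, a sulfhydryl oxidase of the secretory pathway, had 0.211 and 0.216 in WT CHX, 0.0855 and 0.137 in upf1, and 0.0667 and 0.0904 in WT. Neither CUT0915 nor CUT0315 was called in upf1 against WT, with adjusted p of 0.318 and 0.159 in limma.

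CUT0946, 90 bases before CYS3, an enzyme of cysteine synthesis, had 0.0480 and 0.0197 in WT CHX against 0.00191 and 0.00515 in upf1, a log2 difference of 2.78 (SE 0.56, adjusted p = 0.00695). Without upf1 replicate 1 it was 2.29 and without WT CHX replicate 1 it was 2.17, and neither fit called it. CUT0468, with 2 and 1 reads in WT CHX and 0 and 0 in upf1, rests on 3 reads and is given no fold. CUT0869 had 9 and 23 reads in WT CHX and 3 and 3 in upf1, and overlaps XUT0653, as CUT0868 does, so that these members share a transcript annotation. Of the 8, the calls of CUT0055, CUT0076, CUT0468, CUT0869 and CUT0946 were each lost when at least 1 upf1 or WT CHX library was left out, with log2 differences of 1.00 to 2.29 in those fits for the members other than CUT0468. Values of such fits are not given here for CUT0915, CUT0315 and CUT0343, so whether their calls held is left unsaid.

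**Figure D3:**
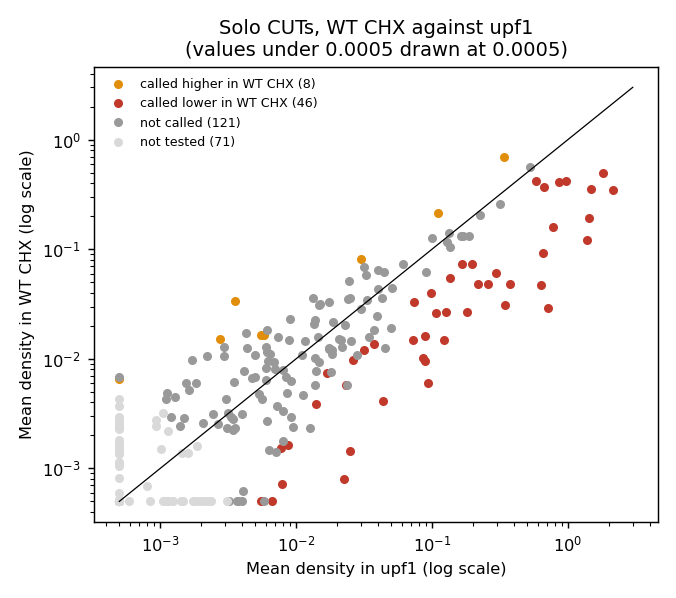
Mean density of each solo CUT in WT CHX (vertical, log scale) against upf1 (horizontal, log scale), with the line of equal density; colours give the call of the direct limma test. The 46 members called lower in WT CHX reach the highest densities, and the 8 called higher include CUT0915 at 0.687 in WT CHX and 0.336 in upf1.

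Loss of Dicer lowered the small RNAs of most solo CUTs that could be tested. In dcr1 upf1 against upf1, 142 of 167 were lower and 0 higher (0 higher also at an unadjusted p under 0.05 and in limma-voom), with 83.9% of all tested features lower and 0.285% higher. In dcr1 CHX against WT CHX, 131 were lower and 1 higher, with 87.1% of all features lower and 0.608% higher. The median log2 changes were -3.19 and -2.73 over solo CUTs, and -3.13 and -3.06 over all features. Of 150 tested members above 3 reads in dcr1 upf1 or upf1, 74 had 0 reads in dcr1 upf1. Of 145 above 3 reads in dcr1 CHX or WT CHX, 47 had 0 reads in dcr1 CHX. The medians above therefore follow the pseudocount. Over those 150 and 145 members, with 0 reads set to the level of 3 reads, the medians were -4.23 and -3.29. A pseudocount 10 times larger gave -1.08 and -0.82, and one 10 times smaller -5.64 and -4.53. Solo CUTs pass the filter on low values mainly through their Dicer-proficient libraries, which favours calls of lower. Under the stricter filter, 86 of 86 were lower in dcr1 upf1 and 84 of 86 in dcr1 CHX. Over all features, 90.7% and 91.4% were lower and 0.454% and 0.672% higher. These directions depend on the scaling. Centred on the median mRNA, 29 were higher and 59 lower in dcr1 upf1 with a median of -0.15. In dcr1 CHX 38 were higher and 40 lower on that scale, with a median of 0.25. Scaled on tRNA, rRNA and snoRNA, 142 were lower and 0 higher in dcr1 upf1, with a median of -3.21. In dcr1 CHX that scaling gave 136 lower and 0 higher, with a median of -2.76.

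The summed density of solo CUTs in dcr1 upf1 was 0.481% of that in upf1, and in dcr1 CHX 3.73% of that in WT CHX. Over all features the remainders were 5.06% and 10.1%, and over CUTs with an antisense feature 0.227% and 1.24%. Without the 10 densest members the ratios were 0.00928 for dcr1 upf1 and 0.0588 for dcr1 CHX. CUT0668, for example, had 2 and 1 reads in dcr1 upf1 against 706 and 909 in upf1, and 3 and 1 in dcr1 CHX against 103 and 129 in WT CHX. CUT0636 had no read in dcr1 upf1 or dcr1 CHX, at least 496-fold lower in dcr1 upf1 than in upf1 and at least 30.2-fold lower in dcr1 CHX than in WT CHX. Relative to untreated WT, dcr1 upf1 was low as well: its sum was 2.42% of the WT sum, with 92 of 167 members called lower and 0 higher (0 at an unadjusted p under 0.05 and in limma-voom), against 66.9% and 1.45% of all features. Centred on the median mRNA, that comparison had 22 higher and 44 lower and a median of 0.36.

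Among the 105 members with at least 10 reads in upf1, dcr1 upf1 kept a median of 0.166% of the density, 43 had no read left and 5 kept 10% or more. Among the 105 with at least 10 reads in WT CHX, dcr1 CHX kept a median of 1.95%, 32 had no read left and 20 kept 10% or more. Both sets were chosen on reads with Dicer alone, a choice that favours low remainders. The members with the most small RNA without Dicer were CUT0055, CUT0315, CUT0283, CUT1066 and CUT0915. CUT0283, at 2558734 to 2559072 on the minus strand of chromosome 1 between CYC1, which encodes cytochrome c, and ANB1, which encodes the hypoxic form of translation factor eIF5A, had 0.0134 and 0.00617 in dcr1 upf1, 0.0172 and 0.0204 in dcr1 CHX, 0.0649 and 0.0633 in WT CHX, 0.0402 and 0.0401 in upf1, and 0.0329 and 0.0118 in WT. Its dcr1 upf1 density was 24.4% of that in upf1, the highest remainder among the 105, on 13 and 6 reads.

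CUT0055, at 432185 to 432440 on the plus strand of chromosome 1 and 1105 bases from VHT1, a biotin transporter gene, had 0.00409 and 0.00409 in dcr1 upf1, 0.0207 and 0.0386 in dcr1 CHX, 0.0703 and 0.0940 in WT CHX, 0.0207 and 0.0398 in upf1, and 0.0284 and 0.0134 in WT. Its dcr1 CHX density was 36.1% of that in WT CHX. CUT1066, overlapping XUT0802 and 178 bases from PGA2, had 0.00716 and 0.00491 in dcr1 upf1, 0.0129 and 0.0114 in dcr1 CHX, 0.110 and 0.0983 in WT CHX, and 0.132 and 0.138 in upf1. The longer CUT0083, on the minus strand of chromosome 1, overlaps XUT0067 and lies 276 bases before CHD1, a chromatin remodeller. It had 19 and 15 reads in dcr1 upf1, 9 and 8 in dcr1 CHX, 21 and 24 in WT CHX, and 114 and 135 in upf1.

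The only member called higher without Dicer was CUT0457, at 853957 to 854248 on the minus strand of chromosome 2. It had 2 and 3 reads in dcr1 CHX and 0 and 1 in WT CHX, a log2 change of 1.32 (SE 0.47, adjusted p = 0.0251). The call was lost in limma-voom on whole reads, where the change was 1.09, and without WT CHX replicate 1, where it was 0.65. It was lost as well when only the groups compared were fitted (1.32), with a pseudocount 10 times smaller (2.92) and with scaling on tRNA, rRNA and snoRNA (1.10).

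**Figure D4:**
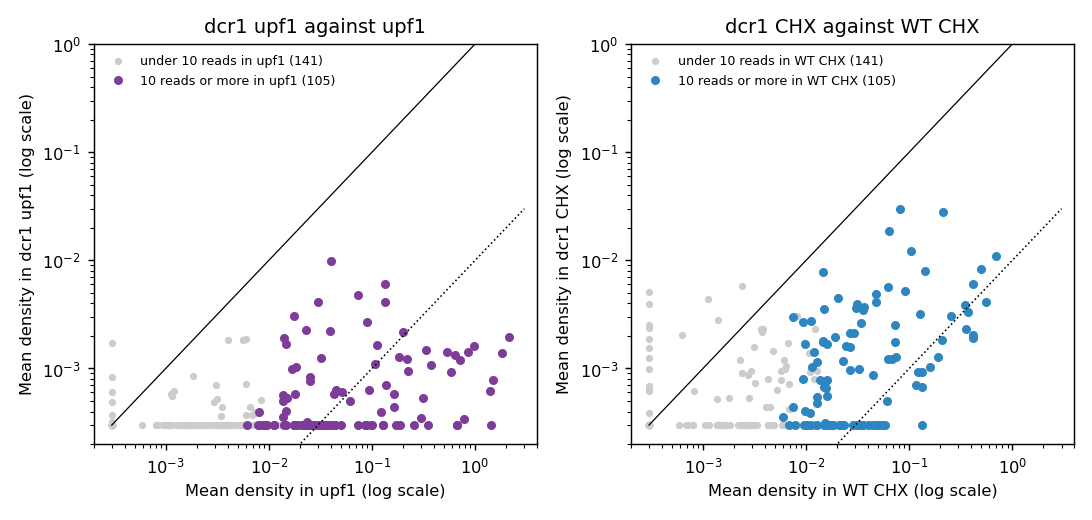
Mean density of each solo CUT without Dicer (vertical, log scale) against the matching Dicer-proficient group (horizontal, log scale), for dcr1 upf1 against upf1 on the left and dcr1 CHX against WT CHX on the right; values under 0.0003 are drawn at 0.0003, the solid line marks equality and the dotted line 1%. Of the coloured members, 70 of 105 lie under 1% in dcr1 upf1 and 45 of 105 in dcr1 CHX. They were chosen for 10 reads or more in the Dicer-proficient group, which favours low remainders.

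Between the Dicer-deficient groups, 10 of 167 solo CUTs were lower in dcr1 upf1 than in dcr1 CHX and 0 were higher (0 at an unadjusted p under 0.05 and in limma-voom), against 9.85% and 0.246% of all features. The median log2 difference was -0.27, and 0.30 when centred on the median mRNA. Leaving out either dcr1 upf1 library brought the count to 3. CUT0315 had 0.00263 and 0.000657 in dcr1 upf1 against 0.0309 and 0.0251 in dcr1 CHX, a log2 difference of -3.32 (SE 0.36, adjusted p = 0.00214). CUT0055 differed by -2.43 (SE 0.44, adjusted p = 0.0145) and CUT0915 by -2.09 (SE 0.24, adjusted p = 0.00252). The groups differ in UPF1 and in cycloheximide at once, which cannot be told apart here. Most members were at or under 3 reads in both groups, 119 of the 167.

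Solo CUTs near a convergent neighbour had higher levels at the median, a difference that was not tested. Members whose 3′ end lay under 200 bases from the next convergent feature of the opposite strand (55 members) had median densities of 0.0120 in WT CHX, 0.0138 in upf1 and 0.00344 in WT. Those at 200 or more but under 1000 bases (68 members) had 0.00532, 0.00615 and 0.00148, and those at 1000 bases or more (123 members) 0.00446, 0.00427 and 0.00128. The 5 densest members lay further off, CUT1202 at 355 bases and CUT0668, CUT0334, CUT0568 and CUT1094 at 2250 to 6354 bases. The median log2 change in upf1 against WT was 1.41, 1.64 and 1.51 over the tested members of these distance classes, from near to far.

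Members that overlap a same-strand XUT had medians of 0.00939 in WT CHX, 0.00912 in upf1 and 0.00210 in WT, against 0.00427, 0.00453 and 0.00118 in those with no same-strand feature. In upf1 against WT, 45 of 69 tested members with such an XUT were called higher, and 44 of 106 without one. Longer members were denser too, with upf1 medians of 0.00287 in the 82 shortest members, 0.00599 in the 82 of middle length and 0.0103 in the 82 longest, and 12 of the 20 densest members were among the longest. Density is per nucleotide, but the overlap, the length and the distance also move with one another across members, and their separate parts in these differences were not tested. With members that overlap a same-strand feature left out, 44 rose in upf1 and 52 with cycloheximide against WT, of 106 tested.

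**Figure D5:**
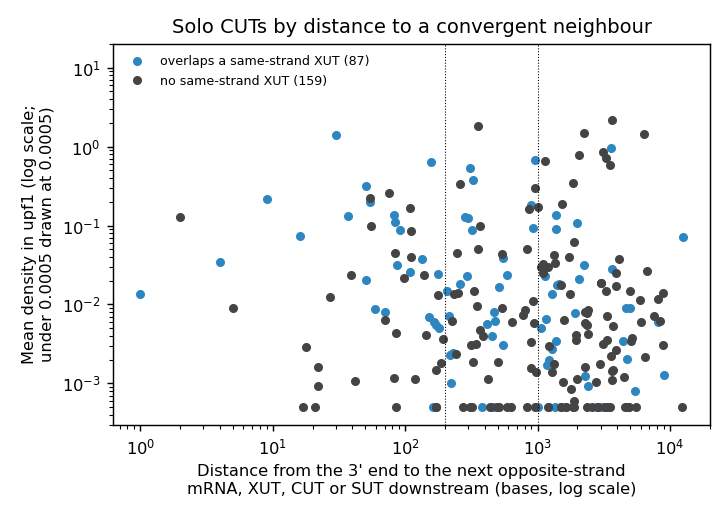
Mean density of each solo CUT in upf1 (log scale) against the distance in bases from its 3′ end to the next opposite-strand feature downstream (log scale), in blue where the CUT overlaps a same-strand XUT and in dark grey where it does not; dotted lines mark 200 and 1000 bases. Members at 0 or near it are frequent at 1000 bases or more, where the median in upf1 was 0.00427, yet several of the densest members also lie there.

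The loss without Dicer was larger in the upf1 background than under cycloheximide for part of the solo CUTs. A test of the difference itself in limma, the log2 change of dcr1 CHX against WT CHX minus that of dcr1 upf1 against upf1, was positive and called for 39 of 167 solo CUTs and negative for 1, against 18.4% and 5.29% of all tested features. The median difference was 0.87 over solo CUTs and 0.22 over all features. The classes most like them had similar shares. CUTs with an antisense feature had 208 of 892 positive and 38 negative, with a median of 0.52. Solo XUTs had 47 of 175 positive and 3 negative, with a median of 0.84. Without upf1 replicate 1 the count of 39 was 25. CUT0642 had the largest difference among the members named here, 4.92, with a log2 change of -3.19 in dcr1 CHX against WT CHX and -8.11 in dcr1 upf1 against upf1. CUT0544, whose level differed little between WT CHX and upf1, had changes of -6.86 and -7.54 in the same comparisons, and their difference was not called. The depth left without Dicer bounds these values, since 97 of 246 members had no read in any Dicer-deficient library. With few reads left there, such a difference can largely follow the levels in WT CHX and upf1 themselves.

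Genes for the decay of CUTs gave small RNAs as well. Of 24 symbols for exosome subunits, their cofactors and termination factors, 22 were matched, and 9 of these rose in upf1 against WT in limma, with a median log2 change of 0.52, against 57.7% of all tested features and a median of 1.20. SEN1, the helicase of early termination, rose by 3.06 (SE 0.19), with 0.205 and 0.202 in upf1 against 0.0209 and 0.0258 in WT. The exosome subunit RRP42, the termination factor NRD1 and the helicase MTR4 rose by 1.76, 1.72 and 1.72. With cycloheximide 20 of 22 rose against WT, with a median of 1.83, against 77.1% of all features and a median of 1.51. The largest changes were those of NAB2, a poly(A) binding protein, at 3.16, and the poly(A) polymerases TRF5 and PAP2 at 2.95 and 2.85. In WT CHX against upf1 12 were higher and 1, SEN1, was lower, at -1.87, against 24.0% of all features higher and 21.8% lower. In dcr1 upf1 against upf1 17 were lower, against 83.9% of all features, and in dcr1 CHX against WT CHX 20, against 87.1%. The mRNA levels of these genes were not measured in these libraries, and the shifts of the scaling alternatives given above apply to them as well.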

How the data were processed

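The deposited values are a coverage signal. Per the labels' protocols, the authors divided reads by feature length and scaled them to S. pombe centromeric small RNAs of 22 to 23 nt, from 1 µg of S. pombe RNA added to 25 µg of total RNA. Trim Galore, Bowtie and the build ASM294v2 of S. pombe are named in the submitters' processing notes. Tool versions, the N. castellii build, the lengths of counted reads and the treatment of reads with several matches are not given there. Of 8770 entries, 92 synthetic controls and 271 repeated entries were dropped. The 5 columns of group means were not used. Density times length gave whole reads for 100% of values within 0.001.

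limma 3.58.1 in R 4.3.3 tested log2(density + 0.00145), for features whose mean reached that pseudocount, which is the 10th percentile of values above 0, taken per library and then as a median. The model had group means and a trend in the variance, with two-sided Benjamini-Hochberg adjustment over all tested features. Comparisons among upf1, WT CHX and WT used their 6 libraries, and those with a Dicer-deficient group all 10. The procedure was also run on counts simulated around WT levels with a fixed spread, in which the low Dicer-deficient levels were not simulated. No result here rests on that run. Fold changes understate changes of sparse features. p-values measure the spread between libraries of the same strain.

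Members and lists were chosen with earlier results of these data known. Named members were the 8 densest, the 5 largest called rises and falls of each Dicer-proficient comparison with separated replicates and a higher mean at or above the members' median, the 5 densest without Dicer, those called higher without Dicer, the 3 longest and 3 shortest, and the 3 largest changes between the Dicer-deficient groups; CUT0343 and the neighbour XUT0406 were added after their values were seen. Gene symbols came from RefSeq's table of assembly ASM23734v1, which listed 5589 of 5600 mRNA identifiers. No pairing by replicate number was seen: deviations from group means correlated between -0.031 and 0.020 over 10 pairs of same-numbered libraries. With 2 libraries per group, this cannot exclude a shared culture or batch.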

Additional observations from a re-analysis of the deposited data

Results flagged for a closer look

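Solo CUTs were singled out where the Dicer effect differed between the cycloheximide and upf1 backgrounds by the test of the difference itself in limma. This held for 40 of 167 tested members, 39 positive and 1 negative, against 18.4% positive and 5.29% negative of all tested features. Values are log2 changes of dcr1 CHX against WT CHX minus those of dcr1 upf1 against upf1.

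Among the densest members the difference was 3.18 for CUT0668, 3.61 for CUT1202, 2.82 for CUT0334, 3.38 for CUT0568, 2.42 for CUT1094, 3.67 for CUT0488 and 1.33 for CUT0405. Among those with the largest changes in upf1 or between WT CHX and upf1 it was 4.92 for CUT0642, 4.80 for CUT1181, 3.95 for CUT1222, 3.54 for CUT0838, 3.44 for CUT0025, 3.43 for CUT0636 and 3.22 for CUT0336. Among the long members and those with the most small RNA left without Dicer it was 1.86 for CUT0083, 1.51 for CUT0700, 2.35 for CUT0315, 1.24 for CUT1066 and 1.06 for CUT0915. CUT0468 was the member with the opposite sign, at -3.20, on 2 reads in dcr1 upf1, 3 in WT CHX and 0 in dcr1 CHX and upf1, so that this fitted value follows the pseudocount.

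CUT0636 and CUT0025 had 0 reads in all dcr1 upf1 and dcr1 CHX libraries. Their differences of 3.43 and 3.44 therefore equal in size their log2 differences between WT CHX and upf1, -3.43 and -3.44, and hold nothing measured without Dicer. CUT0838 and CUT1222 had 0 reads in dcr1 upf1, and CUT0336 had 0 in dcr1 CHX, so their differences partly follow the pseudocount.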

How the results depend on the processing

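Centring on the median mRNA moved most results. It gave 44 higher and 10 lower solo CUTs in upf1 against WT, 4 and 34 in WT CHX against WT (median -0.57), 3 higher in WT CHX against upf1, 29 and 59 in dcr1 upf1 against upf1, 38 and 40 in dcr1 CHX against WT CHX (median 0.25), 22 and 44 in dcr1 upf1 against WT (median 0.36), 2 lower in dcr1 upf1 against dcr1 CHX (median 0.30) and 2 lower in the difference of Dicer effects. For WT CHX against WT it turned CUT0334 to -0.41, CUT0405 to -1.08, CUT0488 to -0.88, CUT0568 to -0.86, CUT0668 to -0.71, CUT1094 to -1.25 and CUT1202 to -0.34. Scaling on tRNA, rRNA and snoRNA gave 0 higher in dcr1 CHX against WT CHX and 6 lower in dcr1 upf1 against dcr1 CHX. The cause was not tested.

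For other choices, in the order upf1 against WT, WT CHX against WT, WT CHX against upf1, dcr1 upf1 against upf1, dcr1 CHX against WT CHX, dcr1 upf1 against WT, dcr1 upf1 against dcr1 CHX and the difference of Dicer effects, counts that moved by over 1.5 times were these. A fit on all 10 libraries gave 2 lower in the first and 14 higher in the third. Fitting only the groups compared gave 15 higher in the third, 2 higher in the fifth, 5 lower in the seventh and 3 lower in the eighth. limma-voom on whole reads gave 0 lower in the first and second, 0 higher in the fifth and 0 lower in the eighth. No filter gave 2 higher in the fifth and 3 lower in the eighth. The stricter filter, which tests fewer members, gave 86 lower in the fourth, 84 lower and 0 higher in the fifth and 0 lower in the eighth. A pseudocount 10 times larger gave 18 higher in the third, 2 lower in the seventh and 7 lower in the eighth; 10 times smaller gave 3 lower in the second, 1 higher and 18 lower in the seventh, and 17 higher and 0 lower in the eighth. Members with at least 10 reads, a choice made after seeing the data, gave 0 higher in the fifth, 61 lower in the sixth and 6 lower in the seventh. Without members that overlap a same-strand feature, fewer being tested, the counts were 44 higher, 52 higher and 0 lower, 21 lower, 84 lower, 79 lower, 61 lower, 5 lower and 21 higher.

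The medians moved as well. They were 0.55, 0.49, -1.08, -0.82 and -0.31 in the first, the second, the fourth, the fifth and the sixth with the larger pseudocount, and 2.07, -5.64, -4.53 and -3.64 in the first, the fourth, the fifth and the sixth with the smaller. In the fourth and the fifth they were -2.32 and -1.97 with no filter, and in the fourth, the fifth and the sixth -4.99, -3.86 and -3.00 with the stricter filter, -4.49, -3.41 and -2.55 in limma-voom and -4.57, -3.48 and -3.30 with at least 10 reads, which gave -1.10 in the seventh. Fitting only the groups compared gave -2.56 in the sixth and -1.06 in the seventh. Centring on the median mRNA gave 0.35, -0.90 and -0.15 in the first, the third and the fourth.

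Leaving out each library in turn gave 0 to 2 lower in the first, 1 to 3 lower in the second, 3 to 16 higher in the third, 0 to 1 higher in the fourth, 1 to 4 higher in the fifth, 0 to 1 higher in the sixth, 3 to 13 lower in the seventh, and 25 to 39 higher and 0 to 5 lower in the eighth. A library left alone in its group is assumed to vary like the others.

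The replicate block gave 91 higher in upf1 against WT and 92 in WT CHX against WT. In WT CHX against upf1 it gave 12 higher and 44 lower. It gave 140 lower in dcr1 upf1 against upf1 and 133 lower in dcr1 CHX against WT CHX. A pairing by replicate number was neither seen nor excluded, so the block is given for completeness. Of 986 alternative values of 59 results for named members, 940 kept direction and call, 39 kept only direction and 7 reversed. Depth limits most members: 105 of 246 reached 10 reads in upf1.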
